A study of Mus musculus with 8 samples.

Results

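CC chemokines are small secreted proteins with a pair of adjacent cysteines that attract leukocytes along a concentration gradient. The 10 described here are Ccl2, Ccl3, Ccl4, Ccl5, Ccl6, Ccl7, Ccl8, Ccl9, Ccl12 and Ccl19, taken as the non-control probes whose gene name on the array equals 1 of these symbols. All 10 were found, on 11 probes, among 37074 gene names on 56605 probes. Single-colour Agilent arrays measured Cy3-labelled RNA on 8 arrays, 1 array for each of 8 groups, so no group has a replicate. All samples came from C57Bl/6J mice, with spinal cord as the tissue and astrocyte as the source.

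The groups were Cx47-deficient naive, WT naive, Cx47-deficient EAE, WT EAE, Cx47-deficient EAE with iguratimod, WT EAE with iguratimod, Cx47-deficient chronic EAE and WT chronic EAE. EAE is experimental autoimmune encephalomyelitis, the mouse model of multiple sclerosis in which T cells against myelin drive leukocytes into the spinal cord. Cx47 is the gap junction protein by which oligodendrocytes couple to astrocytes. The sample titles mark the WT arrays as FL or F/F, the Cx47-deficient arrays as icKO and the chronic arrays as p50, with no further explanation. The series title describes the deficiency as a conditional knockout in oligodendroglia. The driver of the deletion, the times of sampling for the earlier phases, the dose of iguratimod and the way the cells were isolated are not given in the sources used here. The naive state was read from the sample titles. The number of animals per array is not given, so the mouse of a group stands below for the material on its array. Iguratimod is an anti-inflammatory compound used in rheumatoid arthritis, spelled iguratiomod in the labels. Nothing in the labels says that arrays carried separate animals, so p-values measure only the spread between these arrays, which may be technical.

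As background, CC chemokines act through receptors coupled to G proteins on leukocytes. Ccl2, Ccl7 and Ccl12 signal through Ccr2, the receptor by which inflammatory monocytes enter tissue, and mouse Ccl8 signals chiefly through Ccr8. Ccl3, Ccl4 and Ccl5 attract T cells and macrophages, and Ccl3 and Ccl5 act through Ccr1 among other receptors. Ccl6 and Ccl9 are mouse chemokines of myeloid cells that act through Ccr1, and Ccl19 guides T cells and dendritic cells through Ccr7. In EAE, astrocytes, microglia and infiltrating cells are all known sources of such ligands.

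All members but Ccl19 had their probes in a cluster on chromosome 11. On the mm9 build, the probes of Ccl2 (chr11:81850650-81850709), Ccl7 (chr11:81860656-81860715), Ccl12 (chr11:81916710-81916769) and Ccl8 (chr11:81930108-81930167) lay next to each other in position. Those of Ccl5 (chr11:83339296-83339355), Ccl9 (chr11:83388223-83388282), Ccl6 (chr11:83401997-83402056) and Ccl3 (chr11:83461358-83461417) followed, and the probes of Ccl4 ended the cluster (chr11:83478052-83478111 and chr11:83478038-83478097). The probe of Ccl19 lay apart (chr4:42250105-42250164). These are the positions in the deposited files.

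Because the members are relatives, the probes were compared with each other. The closest pair of different genes was Ccl8 and Ccl12, whose 60-base probes shared a run of 13 bases. A window of 30 bases around it is shown for each probe, with the shared run in capitals.
Ccl8: ttctgcagCCTTGAACCTTCAcacctgagt
Ccl12: tCCTTGAACCTTCAtgtctaggctgagagt
The bases on either side of the run differ between the 2 probes. No probe of another gene on the array shared a run of 25 bases with a probe of these 10 genes. The 2 probes of Ccl4 overlap by 46 of 60 bases and are not independent of each other. RefSeq lists several close copies of Ccl19, so its signal cannot be assigned to a single copy.

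Promoters are shown for 4 members. Ccl12 and Ccl8 passed the test of EAE against naive described below. Ccl9 and Ccl19 were also higher on both EAE arrays than on both naive arrays but did not pass it. Of the 10 members, 6 had a promoter in the RefSeq table (build GRCm38.p6). Those of Ccl3 and Ccl6, which did not pass either, are not shown. Each sequence is the 250 bases before the annotated start. Ccl12 is at chr11:82101595-82101844 on the plus strand, Ccl8 at chr11:82114935-82115184 on the plus strand, Ccl9 at chr11:83578637-83578886 on the minus strand and Ccl19 at chr4:42756366-42756615 on the minus strand. The deposited files place the probe of Ccl19 on the plus strand, so this promoter may belong to another copy of Ccl19 than the probe. Capitals mark TATAAA on the sense strand, GGGNNTTTC, a stretch of the NF-kB motif, on either strand, and GAAANNGAA, a stretch of the interferon-response motif, on either strand.
Ccl12: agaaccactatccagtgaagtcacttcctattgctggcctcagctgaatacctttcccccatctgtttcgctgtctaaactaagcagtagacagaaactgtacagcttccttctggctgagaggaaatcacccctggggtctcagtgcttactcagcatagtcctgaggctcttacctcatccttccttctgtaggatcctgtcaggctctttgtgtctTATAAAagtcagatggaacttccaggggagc
Ccl8: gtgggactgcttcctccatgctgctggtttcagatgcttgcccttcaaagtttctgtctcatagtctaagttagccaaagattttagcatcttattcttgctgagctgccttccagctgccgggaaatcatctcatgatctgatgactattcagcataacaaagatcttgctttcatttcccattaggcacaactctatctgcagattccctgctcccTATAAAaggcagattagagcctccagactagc
Ccl9: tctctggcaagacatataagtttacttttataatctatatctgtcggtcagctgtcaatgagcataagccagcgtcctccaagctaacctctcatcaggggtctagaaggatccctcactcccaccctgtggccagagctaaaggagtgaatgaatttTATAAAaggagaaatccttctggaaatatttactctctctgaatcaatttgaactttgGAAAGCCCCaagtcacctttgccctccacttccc
Ccl19: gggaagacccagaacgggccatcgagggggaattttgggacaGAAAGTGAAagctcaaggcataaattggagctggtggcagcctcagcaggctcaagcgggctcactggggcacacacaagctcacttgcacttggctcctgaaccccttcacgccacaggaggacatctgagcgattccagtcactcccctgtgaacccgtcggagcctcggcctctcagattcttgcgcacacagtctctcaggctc
TATAAA, the letters of the TATA box, began 31 bases before the start in Ccl12, 32 in Ccl8 and 92 in Ccl9. At any distance in the window, 3 of 6 members held these letters, against 7.59% of 32851 promoters in the table. GGGNNTTTC was found in 1 of the 6, Ccl9, as the reverse complement at 34 to 26 bases before the start, against 3.72% of all promoters. GAAANNGAA was found in 2 of the 6, in Ccl19 at 208 to 200 bases before the start and in Ccl3, which is not shown, as the reverse complement at 39 to 31 bases, against 7.13%. TTCNNNGAA, a STAT motif that reads the same on both strands, was in 0 of the 6, against 7.02%. No motif overlapped another in these windows. These are letter matches in 1 window and not binding sites.

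Log2 levels throughout are relative to the array's percentile 75. The share of spots well above background ran from 59.7% to 72.0%. Slide 2 held the 2 chronic arrays alone and slide 1 the other 6, so chronic EAE and slide cannot be told apart. Of the marker genes of cell types, 10 of 10 astrocyte genes were well above background on all 8 arrays, and so were 8 of 8 microglia, 7 of 7 oligodendrocyte, 6 of 6 neuron and 9 of 10 monocyte and macrophage genes. Of T and NK cell genes 3 of 10 were above background on all arrays and Cd8a on none, and of neutrophil genes 5 of 9, with Cxcr2 on none. Of endothelial genes 6 of 7 were, of dendritic cell genes 3 of 7 with Xcr1 on none, and of B cell genes 1 of 5 with Cd79a on none. RNA of a whole sample was measured, so more cells of a type and more RNA per cell cannot be told apart, and which cells carried a chemokine was not measured.

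The plot of levels by array shows the shape that most members share: low in naive mice, high in EAE with and without iguratimod, and lower again in chronic EAE. Ccl6, Ccl9 and Ccl19 had the smallest differences between EAE and naive mice, and on the iguratimod arrays Ccl3, Ccl4, Ccl5 and Ccl12 had a gap of over 2-fold between genotypes.

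**Figure D1:**
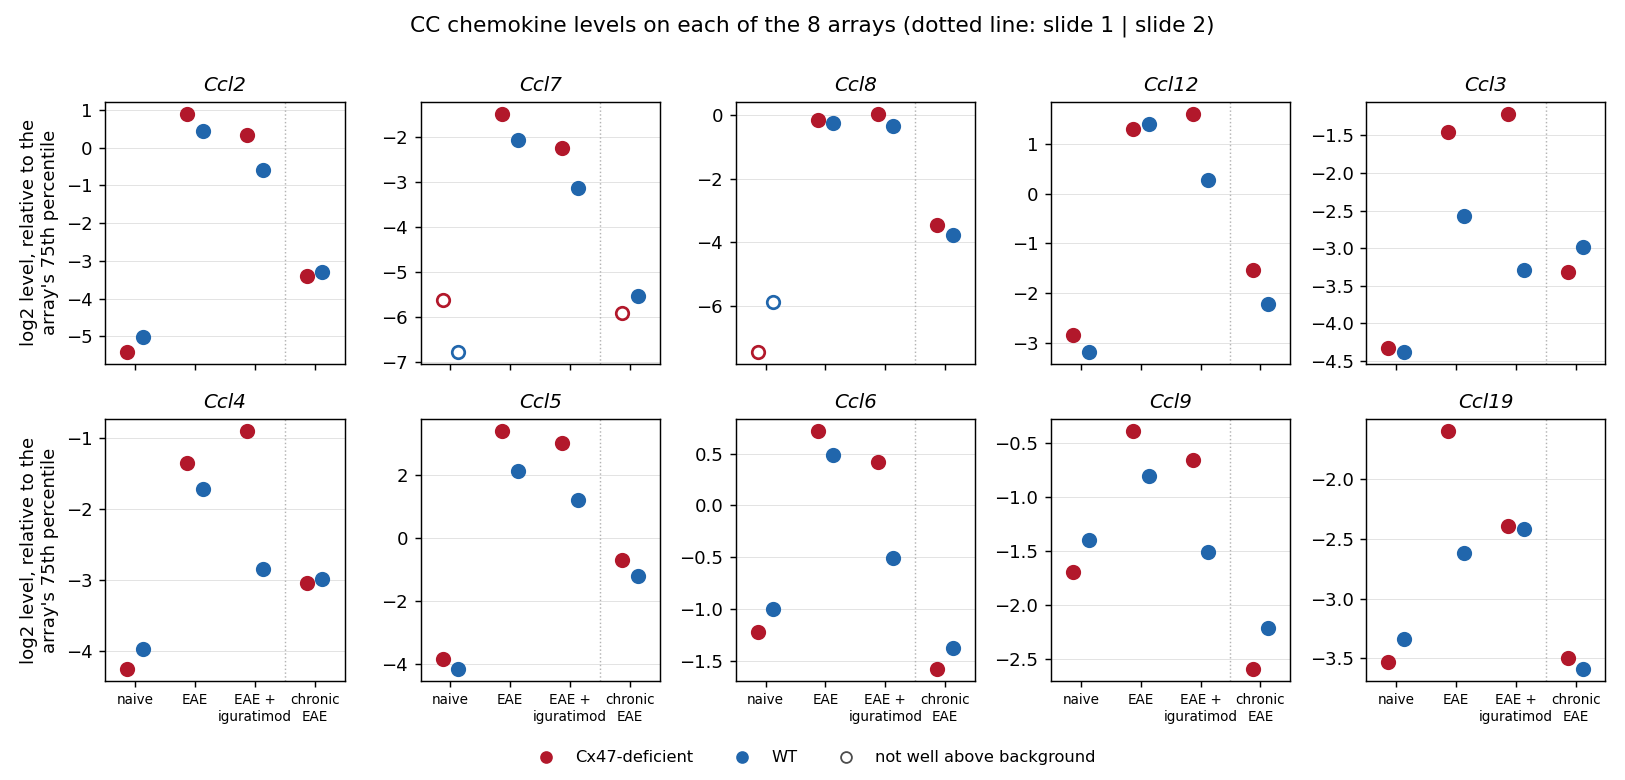
Log2 level of each of the 10 chemokines relative to the array's percentile 75 (vertical axis), for naive, EAE, EAE with iguratimod and chronic EAE (horizontal axis), with 1 point per array coloured by genotype. Hollow points were not well above background and the dotted line separates the 2 slides. Both EAE arrays lie above both naive arrays in all 10 panels.

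Whether disease altered these genes was asked by setting EAE against naive over both genotypes. All 10 chemokines were higher on both EAE arrays than on both naive arrays, as were 13.5% of all genes, and 5 of the 10 passed the test. Ccl5 rose 107.1-fold, Ccl2 58.9-fold, Ccl8 at least 33.5-fold, Ccl12 20.5-fold and Ccl7 at least 11.4-fold. Under normexp, another background correction, the log2 differences were smaller. They were 5.39 for Ccl5, 3.73 for Ccl2, 2.88 for Ccl8, 3.53 for Ccl12 and 1.77 for Ccl7. The bounds of Ccl8 and Ccl7 did not hold there. The test was limma, with condition and genotype as terms in a fit of the 8 arrays, and a call meant a Benjamini-Hochberg adjusted p under 0.05 over 25917 genes. It called 0.247% of all genes higher and 0.00386% lower. The members' median log2 difference was 3.47, against -0.06 over all genes, and 3.05 with Ccl7 and Ccl8 at their bounds. Leaving out any single array left 0 of the 5 calls, or 1 without the WT naive array, and the 6 arrays of slide 1 alone gave 0, while all 10 differences stayed above 0 in each of these fits.

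Of the monocyte chemoattractant protein family (Ccl2, Ccl7, Ccl8 and Ccl12), all 4 rose. Ccl2 had log2 levels of 0.90 in the Cx47-deficient and 0.44 in the WT mouse with EAE, against -5.40 and -5.02 in the naive Cx47-deficient and WT mice. The fitted log2 difference was 5.88 ± 0.35 (SE; adjusted p 0.0280). The 2 EAE arrays lay close together and far above the naive ones. Ccl12, the mouse relative of Ccl2, was at 1.30 in the Cx47-deficient and 1.40 in the WT mouse with EAE, against -2.84 and -3.17 in the naive Cx47-deficient and WT mice, a difference of 4.36 ± 0.36 (adjusted p 0.0385). For this gene the WT mouse had the higher EAE level, by a margin smaller than the naive gap in the other direction. Ccl7 was at -1.47 in the Cx47-deficient and -2.05 in the WT mouse with EAE and was not well above background on either naive array (adjusted p 0.0452). Ccl8 was at -0.16 and -0.24 on the Cx47-deficient and WT EAE arrays and likewise not well above background in naive mice (adjusted p 0.0385). The adjusted p of Ccl7 and Ccl8 is that of the fitted difference, with naive signals as measured, and not of a bound. For these 2 genes the fold is a bound: the mean of the EAE arrays over the mean of the naive arrays, each naive array taken at the lowest signal among its well-measured probes or at the probe's own signal where that was higher.

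Of the attractants of T cells and macrophages, Ccl5 passed the test and Ccl3 and Ccl4 did not. Ccl5, a chemokine made abundantly by activated T cells, was at 3.38 in the Cx47-deficient and 2.11 in the WT mouse with EAE, against -3.84 and -4.15 in the naive Cx47-deficient and WT mice, a difference of 6.74 ± 0.40 (adjusted p 0.0280). Its EAE levels differed between genotypes by more than those of Ccl2 or Ccl12, while both stood far above the naive levels. Ccl3, a macrophage inflammatory protein, was at -1.46 in the Cx47-deficient and -2.58 in the WT mouse with EAE, against -4.33 and -4.38 in the naive Cx47-deficient and WT mice (2.34 ± 0.61, adjusted p 0.326). Ccl4, its close relative, was at -1.35 and -1.71 with EAE in the Cx47-deficient and WT mice, against -4.26 and -3.98 in the naive ones (2.59 ± 0.57, adjusted p 0.210). Both had larger errors than the genes that passed, as their difference between genotypes varied more from condition to condition. The second probe of Ccl4 was at -1.92 and -2.34 on the Cx47-deficient and WT EAE arrays, against -4.72 and -4.88 on the naive ones, again with both EAE arrays above both naive arrays. The order of the 2 naive arrays was the reverse of that on the first probe.

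Neither Ccr1 ligand of myeloid cells passed. Ccl6 was at 0.72 in the Cx47-deficient and 0.49 in the WT mouse with EAE, against -1.23 and -0.999 in the naive Cx47-deficient and WT mice (1.72 ± 0.33, adjusted p 0.156). Ccl9 was at -0.39 and -0.81 in the Cx47-deficient and WT mice with EAE, against -1.70 and -1.40 in the naive ones, the smallest fitted difference of the 10 (0.95 ± 0.35, adjusted p 0.646). Ccl19, the Ccr7 ligand, was at -1.60 in the Cx47-deficient and -2.62 in the WT mouse with EAE, against -3.53 and -3.34 in the naive Cx47-deficient and WT mice (1.32 ± 0.33, adjusted p 0.285). For all 3 the groups did not overlap. At an unadjusted p under 0.05, all 10 members and 1401 genes in all were higher in EAE. Between the single arrays of a genotype, with no test, 10 members were 2-fold higher with EAE in Cx47-deficient mice, against 5.08% of all genes, and 8 in WT mice, against 3.35%.

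**Figure D2:**
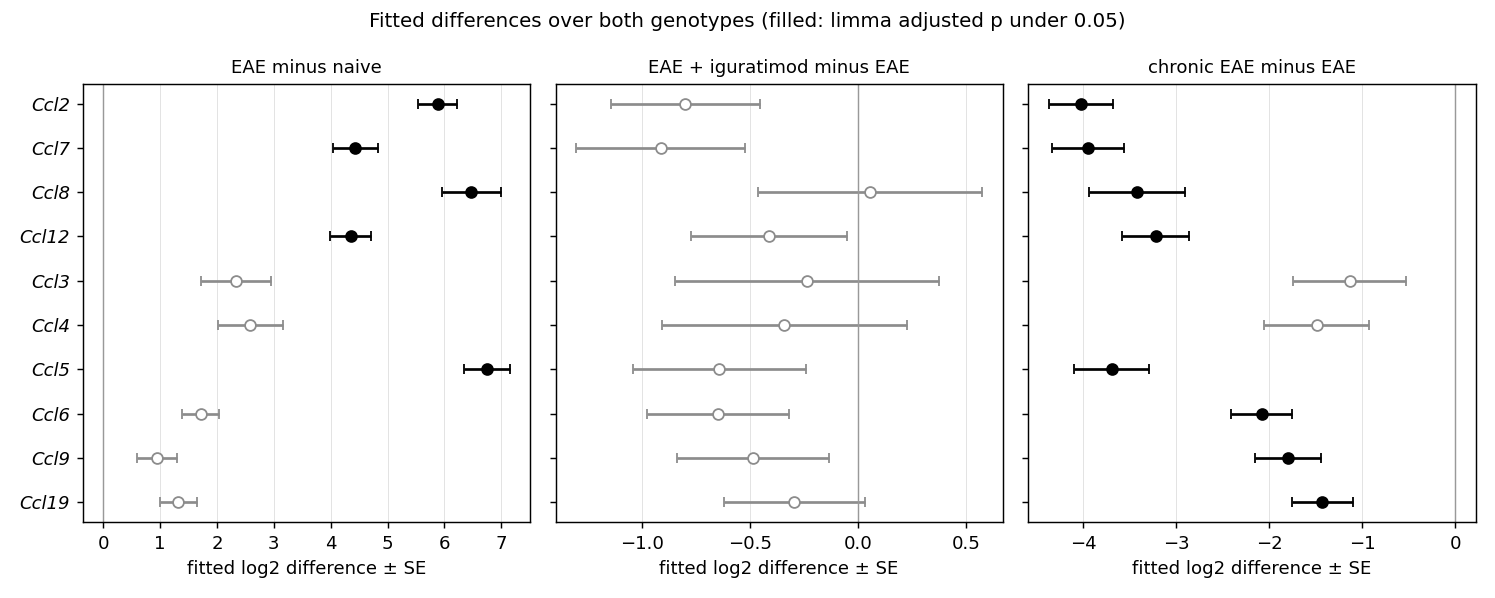
Fitted log2 differences with their SE (limma, condition plus genotype over 8 arrays) for the 10 chemokines, in EAE against naive, EAE with iguratimod against EAE, and chronic EAE against EAE. Filled points passed an adjusted p of 0.05: 5 members in the first comparison, 0 in the second and 8 in the third. The values of Ccl7 and Ccl8 against naive rest on arrays where they were not well above background.

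Summed levels of several cell type lists were also higher with EAE. The summed level of the 10 monocyte and macrophage genes, in multiples of the array's percentile 75, was 92.0 in the Cx47-deficient and 41.5 in the WT mouse with EAE, against 4.38 and 5.54 in the naive Cx47-deficient and WT mice. That of T and NK cell genes was 4.95 and 3.78 on the Cx47-deficient and WT EAE arrays, against 1.22 and 2.13 on the naive ones, and that of endothelial genes 19.0 and 17.7, against 1.23 and 3.41. None of the genes in these 3 lists passed the test, and their median fitted log2 differences, which include genes not well above background in naive mice, were 2.46, 4.46 and 2.47. The sum of neutrophil genes was lower with EAE, at 74.9 and 43.8 on the Cx47-deficient and WT EAE arrays, against 84.4 and 47.8 on the naive ones, while 1 of its 8 genes tested, the calgranulin S100a9, rose. A sum is weighted to its brightest genes, and the median log2 difference of these 8 genes was 2.44. The microglia sum was 87.1 and 79.6 on the Cx47-deficient and WT EAE arrays, against 81.2 and 83.0 on the naive ones, and P2ry12, a microglial purine receptor, differed by -0.07 ± 0.22. The astrocyte sum was 310 and 356 with EAE in the Cx47-deficient and WT mice, against 344 and 380 in the naive ones, while Gfap, the filament gene of reactive astrocytes, differed by 1.59 ± 0.22 (adjusted p 0.0814). The part of cell composition in the chemokine differences was not tested.

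The receptors for these ligands did not pass in EAE against naive: 0 of 7 signalling CC receptors tested, 0 of 4 atypical receptors and 0 of 7 other CC ligands. Ccr1, Ccr3 and Ccr4 were not well above background on any array, so the receptor shared by Ccl3, Ccl5, Ccl6 and Ccl9 could not be followed. The largest difference was in Ccr7, the receptor of Ccl19 (2.81 ± 0.59, adjusted p 0.195), and then in the atypical receptor Ccrl2 (2.63 ± 0.35, adjusted p 0.0757). Ccr2, the receptor of Ccl2, was at -2.30 in the Cx47-deficient and -3.41 in the WT mouse with EAE, against -4.56 in the naive Cx47-deficient mouse, and was not well above background in the naive WT mouse (adjusted p 0.127). Ccr6 and Ccr9 were well above background on 1 of 2 naive arrays, and the scavenger Ackr4 on 1 of 2 arrays in each group, so no difference is given for them.

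Iguratimod was given in EAE, and the arrays with it were set against the same EAE arrays as above. No member passed the test, and no gene did (0% higher and 0% lower). A response that differed between genotypes enters the error of this test, so the test cannot decide on such a response. At an unadjusted p under 0.05, 139 genes were higher and 407 lower, none of them a member. The fitted difference was below 0 for 9 of the 10 chemokines, with a median of -0.45 against -0.01 over all genes. It lay between -0.91 ± 0.39 for Ccl7 and 0.05 ± 0.52 for Ccl8, and the adjusted p was 0.9999 for each. Ccl2, Ccl6 and Ccl7 were lower on both iguratimod arrays than on both EAE arrays, 3 of 10 members, against 12.8% of all genes.

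The 2 genotypes differed in these values, and each difference is between single arrays with no test. In WT mice Ccl12 was at 0.27 with iguratimod, against 1.40 with EAE alone, and in Cx47-deficient mice at 1.60, against 1.30. Ccl4 was at -2.85 with iguratimod in the WT mouse, against -1.71 with EAE alone, and at -0.89 in the Cx47-deficient mouse, against -1.35. The WT array with iguratimod was the lower one of its pair for both genes, and the Cx47-deficient one the higher. The second probe of Ccl4 had the same order with smaller differences. It was at -3.09 with iguratimod in the WT mouse, against -2.34 with EAE alone, which is less than 2-fold lower. In the Cx47-deficient mouse it was at -1.83, against -1.92. The counts below use the first probe. By 2-fold or more, 4 members were lower with iguratimod in WT mice: Ccl4 by a log2 difference of -1.14, Ccl12 by -1.13, Ccl7 by -1.07 and Ccl2 by -1.03. Of all genes, 1.22% were that much lower in this pair and 3.08% that much higher, among them 0 members. In Cx47-deficient mice 0 members were 2-fold lower, against 3.53% of all genes, and 0 were 2-fold higher, against 0.268%. Their differences there lay between -0.79 for Ccl19 and 0.46 for Ccl4. After normexp background correction, 1 member was 2-fold lower in WT mice, Ccl12. Under quantile normalization and on the authors' values Ccl4, Ccl7 and Ccl12 were, and with median centring Ccl2 and Ccl6 as well. The shares of all genes given here are for the main scaling. Beside these values, the monocyte and macrophage sum was 30.2 in the WT mouse with iguratimod, against 41.5 with EAE alone, and 64.2 in the Cx47-deficient mouse, against 92.0. The T and NK cell sum was 2.18 in the WT mouse with iguratimod, against 3.78 with EAE alone, and 4.81 in the Cx47-deficient mouse, against 4.95. The endothelial sum was 12.96 and 10.8 with iguratimod in the WT and Cx47-deficient mice, against 17.7 and 19.0 with EAE alone, and the neutrophil sum 53.3 and 44.2, against 43.8 and 74.9. Their part in the chemokine values was not tested.

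Set against naive mice, the iguratimod arrays still had high levels of the same genes. No member passed (0.00386% of genes rose and 0% fell). At an unadjusted p under 0.05, 9 members and 1061 of 25917 genes were higher, and 873 genes were lower, none of them a member. Ccl5 was at 3.003 in the Cx47-deficient and 1.20 in the WT mouse with iguratimod, against -3.84 and -4.15 in the naive Cx47-deficient and WT mice (6.10 ± 0.40, adjusted p 0.0570). Ccl2 was at 0.32 and -0.58 with iguratimod in the Cx47-deficient and WT mice, against -5.40 and -5.02 in the naive ones (5.08 ± 0.35, adjusted p 0.0570). These values sat just past the threshold. The signal of Ccl8 was at least 34.8-fold that of naive mice (adjusted p 0.0653) and that of Ccl7 at least 6.04-fold (adjusted p 0.0951). The lowest log2 differences in the alternative runs were 2.90 for Ccl8 and 1.17 for Ccl7, below these bounds. Ccl12 differed by 3.94 ± 0.36 (adjusted p 0.0750). Apart from Ccl9, whose groups overlapped, 9 members were higher on both iguratimod arrays than on both naive arrays, against 14% of all genes. Under normexp 4 members passed and under median centring 5.

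Chronic EAE was compared with the earlier EAE arrays, and 8 of 10 chemokines fell. The background was wide here: 5.38% of all genes fell and 9.04% rose, and the contrast also separates the slides. All 10 members were lower on both chronic arrays than on both EAE arrays, against 36.2% of all genes. The members' median was -2.65, against 0.02 over all genes. Without the Cx47-deficient EAE, the WT EAE or the WT chronic array 0 members passed, and without the Cx47-deficient chronic array 2 did. Without either iguratimod array 5 passed, without either naive array 6, and all 10 differences stayed below 0 in each of these fits.

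All 4 genes of the monocyte chemoattractant protein family fell. Ccl2 was at -3.41 in the Cx47-deficient and -3.30 in the WT mouse with chronic EAE, against 0.90 and 0.44 in the Cx47-deficient and WT mice with EAE (-4.03 ± 0.35, adjusted p 0.0257). Ccl12 was at -1.53 and -2.21 in chronic EAE in the Cx47-deficient and WT mice, against 1.30 and 1.40 in EAE (-3.22 ± 0.36, adjusted p 0.0291). Ccl8 was at -3.45 and -3.79 on the Cx47-deficient and WT chronic arrays, against -0.16 and -0.24 on the EAE arrays (-3.42 ± 0.52, adjusted p 0.0381). For these 3 genes the 2 genotypes differed by less than 2-fold in both phases. Ccl7 was not well above background in the Cx47-deficient mouse and at -5.52 in the WT mouse with chronic EAE, against -1.47 and -2.05 in the Cx47-deficient and WT mice with EAE (-3.95 ± 0.39, adjusted p 0.0280).

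Among the attractants of T cells and macrophages Ccl5 again passed and Ccl3 and Ccl4 did not. Ccl5 was at -0.69 in the Cx47-deficient and -1.21 in the WT mouse with chronic EAE, against 3.38 and 2.11 in the Cx47-deficient and WT mice with EAE (-3.70 ± 0.40, adjusted p 0.0284). Ccl3 was at -3.32 and -2.99 in chronic EAE in the Cx47-deficient and WT mice, against -1.46 and -2.58 in EAE (-1.14 ± 0.61, adjusted p 0.216). Its WT chronic and WT EAE levels lay close together, while the Cx47-deficient ones did not. Ccl4 was at -3.05 and -2.99 on the Cx47-deficient and WT chronic arrays, against -1.35 and -1.71 on the EAE arrays (-1.49 ± 0.57, adjusted p 0.114).

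The myeloid Ccr1 ligands and Ccl19, which had not passed in EAE against naive, fell here. Ccl6 was at -1.58 in the Cx47-deficient and -1.38 in the WT mouse with chronic EAE, against 0.72 and 0.49 in EAE (-2.08 ± 0.33, adjusted p 0.0386). Ccl9 was at -2.59 and -2.21 in the Cx47-deficient and WT mice with chronic EAE, against -0.39 and -0.81 in EAE (-1.80 ± 0.35, adjusted p 0.0427). Both genes were also lower in chronic EAE than on both naive arrays. Ccl19 was at -3.49 and -3.59 on the Cx47-deficient and WT chronic arrays, against -1.60 and -2.62 on the EAE arrays (-1.43 ± 0.33, adjusted p 0.0487).

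Other genes moved in this contrast too. Of the 10 monocyte and macrophage genes 7 fell, and their summed level was 9.62 in the Cx47-deficient and 8.60 in the WT mouse with chronic EAE, against 92.0 and 41.5 in EAE. T and NK cell genes summed to 1.40 and 1.51 in chronic EAE in the Cx47-deficient and WT mice, against 4.95 and 3.78 in EAE, with Gzmb and Nkg7 past the test. Among astrocyte genes, the filament gene Gfap fell by 2.70 ± 0.22 on the log2 scale (adjusted p 0.0236) and Gja1, which encodes connexin 43, by 1.16 ± 0.26 (adjusted p 0.0487), while the astrocyte sum was 302 and 200 in the Cx47-deficient and WT mice with chronic EAE, against 310 and 356 in EAE. The microglia sum was 89.8 and 99.9 in chronic EAE in the Cx47-deficient and WT mice, against 87.1 and 79.6 in EAE. The median log2 difference of the 8 microglia genes was -0.50, against 0.02 over all genes, and 0 of them passed the test. The oligodendrocyte sum was 136 and 94.6 on the Cx47-deficient and WT chronic arrays, against 181 and 249.4 on the EAE arrays, and 3 of 7 of its genes fell. The endothelial sum was 4.296 and 2.21 in chronic EAE in the Cx47-deficient and WT mice, against 19.0 and 17.7 in EAE, and Ly6c1 fell. The neutrophil sum was higher, at 134 and 148.0 on the Cx47-deficient and WT chronic arrays, against 74.9 and 43.8 on the EAE arrays. Of 8 neutrophil genes tested Ly6g, S100a8 and S100a9 fell and Csf3r rose, and the median log2 difference of the 8 was -1.39. The part of these markers, or of the slide, in the chemokine differences was not tested.

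Of the atypical receptors, Ccrl2 fell (-1.74 ± 0.35, adjusted p 0.0432) and Ackr2, a decoy that takes up inflammatory CC chemokines, rose (1.11 ± 0.18, adjusted p 0.0386), 1 of 4 in each direction. Of 7 other CC ligands, 2 rose in chronic EAE and 0 fell. Ccl21a, the other ligand of Ccr7, was at -0.26 in the Cx47-deficient and 0.69 in the WT mouse with chronic EAE, against -1.05 and -1.15 in EAE (1.32 ± 0.30, adjusted p 0.0485), while Ccl19 was lower. Ccl1 was at least 1.16-fold higher in chronic EAE by group means and not well above background on either EAE array. Its adjusted p of 0.0498 is that of the fitted limma difference and not of this bound. In WT mice its chronic level, -5.40, lay below the lowest signal among well-measured probes of the EAE array, -5.26. No rise can be bounded for that genotype. Of 7 signalling receptors 0 passed. Ccr8, the receptor of Ccl8, was well above background on 1 of 2 chronic arrays (adjusted p 0.0685). Ccl28, a mucosal chemokine, differed by 1.23 ± 0.30 (adjusted p 0.0523), and Ccl24 was not well above background on either chronic array.

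Whether chronic EAE stayed above the naive level was asked next, with the same limit of slide. No member passed, against 0.648% of genes that rose and 0.212% that fell. The 3 largest differences missed the threshold narrowly. Ccl5 was at -0.69 and -1.21 in the Cx47-deficient and WT mice with chronic EAE, against -3.84 and -4.15 in the naive ones (3.05 ± 0.40, adjusted p 0.0514). Ccl8 was at least 3.13-fold above its bound in naive mice (adjusted p 0.0632), and Ccl2 differed by 1.85 ± 0.35 (adjusted p 0.0669). The lowest log2 difference of Ccl8 in the alternative runs was 0.38, below its bound. Ccl12 differed by 1.13 ± 0.36, Ccl3 by 1.20 ± 0.61 and Ccl4 by 1.099 ± 0.57. On the other side, Ccl9 differed by -0.85 ± 0.35 (adjusted p 0.166) and Ccl6 by -0.37 ± 0.33, and Ccl19 differed by -0.11 ± 0.33. Ccl7 was well above background on the WT chronic array alone of these 4 arrays, and no fold is given. Both chronic arrays were above both naive arrays for 6 members, against 35.4% of all genes, and below them for 2, against 31.2%.

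Cx47 deficiency was compared with WT over the 4 conditions. No member passed, nor did any gene (0% in either direction), while 862 genes were higher and 285 lower at an unadjusted p under 0.05, 1 member among the higher. That member was Ccl5, with a fitted difference of 0.98 ± 0.28 (adjusted p 0.830). The other members lay between 0.73 ± 0.43 for Ccl3 and -0.19 ± 0.37 for Ccl8, and 9 of 10 were above 0, with a median of 0.37 against -0.00 over all genes. For every member the levels of the 4 Cx47-deficient and the 4 WT arrays overlapped. Each set of 4 ran from naive to EAE arrays, so this overlap cannot decide whether genotype mattered.

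The pairs within a condition show where the values lay apart, with 1 array on each side and no test. With EAE, Ccl5 was higher in the Cx47-deficient mouse by 1.28 on the log2 scale, Ccl3 by 1.12 and Ccl19 by 1.02, so 3 of 10 members were 2-fold higher, against 6.72% of all genes, and 0 were 2-fold lower, against 0.676%. This count of higher members was 1 under normexp, under quantile normalization and with the authors' values, and 0 with median centring. The remaining members differed by -0.09 for Ccl12 to 0.58 for Ccl7. With iguratimod, Ccl3 was at -1.21 in the Cx47-deficient and -3.30 in the WT mouse, a difference of 2.08, and Ccl4 at -0.89 and -2.85, a difference of 1.96. The second probe of Ccl4 was at -1.83 and -3.09, a smaller gap that was still over 2-fold. Ccl5 differed by 1.80 and Ccl12 by 1.34, so 4 members were 2-fold higher, against 2.6% of all genes, and 0 were 2-fold lower, against 2.26%. Ccl6, Ccl2, Ccl7 and Ccl9 differed by 0.92, 0.91, 0.88 and 0.85 in this pair, and Ccl8 and Ccl19 by 0.38 and 0.02.

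The monocyte and macrophage sum was 64.2 in the Cx47-deficient and 30.2 in the WT mouse with iguratimod, and the T and NK cell sum 4.81 and 2.18. Their part in these pair differences was not tested. In chronic EAE no member differed by 2-fold (1.63% of genes higher and 1.29% lower), with Ccl12 at 0.68 and Ccl5 at 0.52 as the largest. In the naive pair none did either (8.07% higher and 2.64% lower), and Ccl7 and Ccl8 were not well above background on either array.

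**Figure D3:**
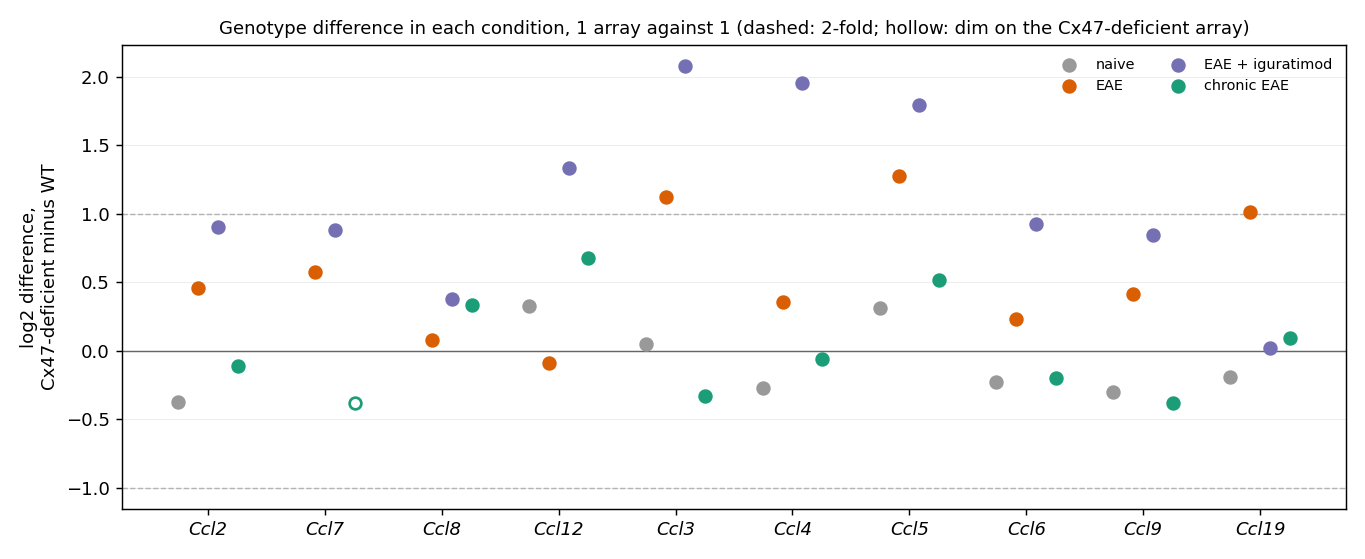
Log2 difference between the Cx47-deficient and the WT array of each condition (vertical axis) for the 10 chemokines, with 1 array on each side and no error. Dashed lines mark 2-fold, and Ccl7 and Ccl8 are left out of the naive pair; the hollow point was not well above background on the Cx47-deficient array. In the iguratimod pair Ccl3, Ccl4, Ccl5 and Ccl12 lie above the upper line, and in the EAE pair Ccl3, Ccl5 and Ccl19.

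Genes with a like pattern were looked up for each member among 21974 genes that at least 6 arrays measured well above background. The measure was Pearson's r of log2 levels over the 8 arrays, which share conditions and slides, so r is a description with no test. The nearest gene to Ccl2 was H2-Ab1, a chain of MHC class II (r = 0.998), to Ccl12 the T cell attractant Cxcl10 (0.993), to Ccl8 the cholesterol hydroxylase Ch25h (0.987) and to Ccl7 D17H6S56E-5 (0.995). For Ccl5 it was the guanylate-binding protein Gbp8 (0.995), for Ccl4 the T cell co-receptor chain Cd8b1 (0.988) and for Ccl3 Zmynd15 (0.980). Ccl6 was nearest to Rcsd1 (0.995), Ccl9 to the actin regulator Parvg (0.992) and Ccl19 to Cmtm8 (0.969).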

How the data were processed

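Spot intensity values came from deposited scanner files of single-colour Agilent arrays, made with Feature Extraction 10.7.1.1 per the file headers and 9.5.1.1 per the submitters' processing notes, a difference that was not resolved. Per the file headers, the processed signal had background and spatial trend removed and probe positions are on mm9. The authors' table of processed intensity values served as an alternative. Columns left without a sample numbered 0.

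Levels are log2 of the processed signal minus the array's percentile 75. Control and outlier spots were left out, and spots of a probe averaged. Probes well above background on at least 2 arrays were kept, and the brightest kept probe stood for a gene, which gave 25917 genes, 8784 with several kept probes. Genes carry the names in the deposited files, which can be old. The fits used R 4.3.3 and limma 3.58.1 (lmFit, eBayes), with condition and genotype as terms over 8 arrays and 3 residual degrees of freedom. Calls took a Benjamini-Hochberg adjusted p under 0.05. The number of arrays limits the precision. The script was tested on simulated data. Members, gene lists and tests were chosen with earlier results of these data known. Named genes were all members, up to 6 genes per comparison with the largest difference among other CC ligands and receptors, the gene nearest to each member, markers not above background on any array, and a few fixed genes (Ccr2, Gfap, Gja1, P2ry12, Cd3e among them); genes named beside a count were added after their values were seen. Cd3e differed by 0.89 ± 0.29 in EAE against naive (adjusted p 0.537). Some genes measured on the arrays are not reported here.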

Additional observations from a re-analysis of the deposited data

Results flagged for a closer look

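For 5 chemokines the single-array difference of iguratimod against EAE had opposite signs in the 2 genotypes, with 1 array on each side, so the difference between genotypes was not tested. On the log2 scale Ccl4 was at 0.46 in Cx47-deficient mice and -1.14 in WT mice, Ccl12 at 0.30 and -1.13, and Ccl3 at 0.24 and -0.72. On the second probe of Ccl4 the signs were the same but the differences smaller. Its levels with iguratimod were -1.83 in the Cx47-deficient and -3.09 in the WT mouse, against -1.92 and -2.34 with EAE alone. Ccl8 was at 0.20 in Cx47-deficient mice and -0.09 in WT mice. Ccl19 ran the other way, at -0.79 in Cx47-deficient mice and 0.20 in WT mice. In chronic EAE against naive, Ccl19 was at 0.03 in Cx47-deficient mice and -0.25 in WT mice, also not tested.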

How the results depend on the processing

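In EAE against naive, 5 members passed. Under quantile normalization 3 passed, 3 on the authors' values, 3 of the 8 left by a filter on all arrays, 2 with no filter, 2 with every probe as its own feature, 0 on slide 1 alone, and 0 to 1 when an array was left out. In chronic EAE against EAE 8 passed, 5 did with no filter, and 0 to 6 when an array was left out. No member changed sign in these 2 comparisons. In iguratimod against naive 0 passed, but 4 under normexp, 5 with median centring, 3 of 8 with the filter on all arrays and 2 with the mean of probes. In chronic EAE against naive 0 passed, but 1 under normexp, 2 with median centring, 2 of 8 with the filter on all arrays and 1 with every probe. In iguratimod against EAE and in Cx47 deficiency against WT 0 passed in every alternative run. The causes were not tested. Genes called in all also depended on the setting. In EAE against naive they numbered 65, but 358 with median centring, 201 with the filter on all arrays, 200 under normexp, 38 under quantile normalization, 28 with every probe, 15 with no filter, 0 on slide 1 alone and 0 to 11 without an array. In iguratimod against naive they numbered 1, but up to 236 with median centring. In chronic EAE against naive they numbered 223, but 3898 under normexp and 12 on the authors' values, and 1 to 3 without an array. In chronic EAE against EAE they numbered 3738, but 6949 with median centring, 7530 with every probe, 849 with no filter and 1 to 2446 without an array. Median centring moved the median of all genes to -0.41 in chronic EAE against EAE, -0.34 in chronic EAE against naive and -0.18 for genotype.

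Signs turned only for differences that did not pass. When an array was left out, iguratimod against EAE ran from -1.14 to 0.66 for Ccl3, -1.32 to 0.63 for Ccl4, -0.32 to 0.43 for Ccl8, -0.93 to 0.10 for Ccl12 and -0.82 to 0.22 for Ccl19. The sign turned without an EAE array for Ccl3, Ccl8, Ccl12 and Ccl19 and without an iguratimod array for Ccl3, Ccl4, Ccl8 and Ccl12. Iguratimod against naive ran from -0.010 to 0.93 for Ccl9. Chronic EAE against naive ran from -0.14 to 1.11 for Ccl7, which was also at -0.15 under normexp, -0.14 under quantile normalization and -0.14 on the authors' values, and from -0.39 to 0.18 for Ccl19. For genotype the ranges were -0.010 to 0.42 for Ccl2, -0.065 to 0.32 for Ccl6, -0.38 to 0.27 for Ccl8, -0.088 to 0.32 for Ccl9 and -0.025 to 0.38 for Ccl19. Ccl8 was at 0.055 under normexp and Ccl9 at -0.029 with median centring.

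The counts of 2-fold differences between single arrays under other scalings were chosen after seeing the data. In them the sign turned for Ccl6 and Ccl8 in the EAE pair of genotypes, Ccl19 in the iguratimod pair, Ccl3, Ccl5 and Ccl12 in the naive pair and Ccl4 in the chronic pair. No paired analysis was possible because each group had 1 array and the labels give no replicate numbers. Ccl7 and Ccl8 were well above background on 5 and 6 of 8 arrays, which limits their values in naive mice to bounds.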
